A study of Mus musculus with 7 samples.

Results

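Collagen chain genes were examined in mouse fetal liver with and without the RNA-binding protein Pcbp2. They were taken as every gene that the authors' deposited table names Col, a number, a and a number, with Col6a6 left out, and were joined by identifier to the read counts of each library. This gave 39 of the 38924 genes counted, and all 39 were among the 16226 genes with enough reads to be tested. The deposited table holds only 15548 genes, so passing that filter was nearly settled by the choice of members. Col6a4, Col6a5, Col10a1 and Col28a1 were counted but are not in the deposited table. Of these only Col6a5 was tested (log2 fold change -1.62, knockout over wild type, edgeR adjusted p = 0.169). By the kind of structure their chains build, 11 encode fibrillar collagens, 6 encode the network collagen of basement membranes and 22 encode other types. The other types comprise 9 fibril-associated, 4 transmembrane, 3 beaded-filament, 2 multiplexin and 2 short-chain genes, with Col7a1 and Col26a1 as the remaining pair.

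The study sequenced messenger RNA from whole fetal livers at 12.5 days post coitum. The 3 knockout libraries, numbered 3, 4 and 5, carry a knockout of Pcbp2, and the 4 wild-type libraries are numbered 1 to 4. The labels give no strain, allele, sex or litter, and do not say that each library came from a separate animal, so each p-value reflects only how much these libraries vary. Reads assigned to genes numbered 31898339 to 42378821 in knockout libraries and 32240949 to 44544889 in wild-type libraries. Levels are given as CPM, each library's reads scaled to a common total with TMM factors. A gene with 0 reads could lie as high as 3 reads, or 0.0662 to 0.102 CPM depending on the library, which covers counting error only.

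A collagen molecule is a triple helix of chains that are modified in the endoplasmic reticulum, secreted, trimmed and cross-linked outside the cell. Fibrillar collagens form the tensile fibres of connective tissue, type IV collagen forms the sheet beneath epithelia and vessels, and the remaining types coat fibrils, link them to other structures or span membranes. In liver, stellate cells and other mesenchymal cells are the main source of fibrillar collagen, while endothelial cells contribute much of the type IV chains. PCBP proteins bind stretches of C in RNA, and PCBP proteins of activated stellate cells have been reported to bind such a stretch in the 3′ UTR of the mRNA for the alpha 1 chain of type I collagen.

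Because Pcbp2 is a poly(C)-binding protein, the 30 bases richest in C in the 3′ UTR are shown for the 3 collagen genes with the highest level per kb and for the 2 that passed the test between the groups. Runs of at least 3 C are in capitals. The sequences are from the longest principal transcripts of GENCODE M21 and the coordinates are on mm10.

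Col1a1, chr11:94952225-94952254, plus strand: CCCCCCacttttttctctCCCCCCCCCCCC

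Col1a2, chr6:4540846-4540875, plus strand: ccaactaagtctcctCCCttggCCCCtCCC

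Col3a1, chr1:45349127-45349156, plus strand: acatgtcctcctCCCtatgttaactacctc

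Col14a1, chr15:55520041-55520070, plus strand: ggcaggCCCtcttctggagcttcacttacc

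Col6a3, chr1:90767367-90767396, minus strand: CCCtgctctccgtctccaggcagttctacc

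The Col1a1 window held 21 C, a count reached by 5.61% of the 14536 genes with a 3′ UTR of at least 30 bases. It begins 605 bases after the stop codon and was not matched to the reported stretch. The Col1a2 and Col3a1 windows held 16 and 12 C, which 43.8% and 84.9% of those genes reached. The windows of Col14a1 and Col6a3 held 11 and 14 C, reached by 90.3% and 67.9% of genes. The window counts and shares in this paragraph took no account of UTR length, and a longer UTR holds more windows. The UTR had 191 bases in Col14a1 and 732 in Col6a3, against 1423 in Col1a1, 882 in Col1a2 and 959 in Col3a1. C made up 20.9% of the whole UTR in Col14a1 and 22.4% in Col6a3, against a median of 21.995% over the 14536 genes. The median of the highest count in a 30-base window was 16 over the 38 collagen genes with a UTR of at least 30 bases and 15 over all 14536 genes. Col15a1, a multiplexin gene, had the highest count among the collagens, 25 C, reached by 0.330% of genes. A C-rich window is a description of the letters and not a binding site.

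Pcbp2 itself was at 2.24, 1.39 and 2.22 CPM in knockout replicates 3, 4 and 5, against 165, 329, 347 and 338 CPM in wild-type replicates 1 to 4, which fits the labels. Wild-type replicate 2 stood apart for collagens: it was the highest wild-type library for 32 of the 39 genes (82.1%), against 30.1% of all tested genes. It was the highest of all 7 libraries for 27 of the 39 (69.2%), against 14.7% of all tested genes. Calls, sums and log2 fold changes that moved by over 1.5 times without that library are given both ways for the collagens described in every library. That library was singled out by these same values. For genes where it was high, leaving it out was bound to raise the log2 fold change of knockout over wild type.

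Few collagen genes passed the test between the groups, and both that did were lower in the knockout. The test was edgeR's quasi-likelihood test over all 16226 genes, with Benjamini-Hochberg adjustment and a threshold of 0.05. It called 2 of the 39 collagen genes, or 5.13%, against 5.02% of all tested genes, so the collagens were called at about the background share. Both called genes, Col14a1 and Col6a3, fell in the knockout; no collagen rose, while 3.43% of all tested genes were called lower and 1.59% higher. At an unadjusted p under 0.05 in the same fit, 8 collagen genes passed (20.5%, against 21.8% of all tested genes). DESeq2 likewise called 0 collagens higher (against 3.67% of its tested genes) but 5 lower (12.8%, against 6.18%). Log2 fold changes are knockout over wild type. Their median was -0.090 over the 39 collagens and 0.014 over all tested genes, with 22 collagens below 0 and 17 above it. Without wild-type replicate 2 the collagen median was 0.030, and 3 collagens, Col12a1, Col19a1 and Col2a1, were called higher (7.69%, against 2.62% of the genes tested). The same 2 were called lower (5.13%, against 4.73%). With any other single library left out, 0 collagens were called higher, and 24 to 246 of all tested genes were.

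**Figure D1:**
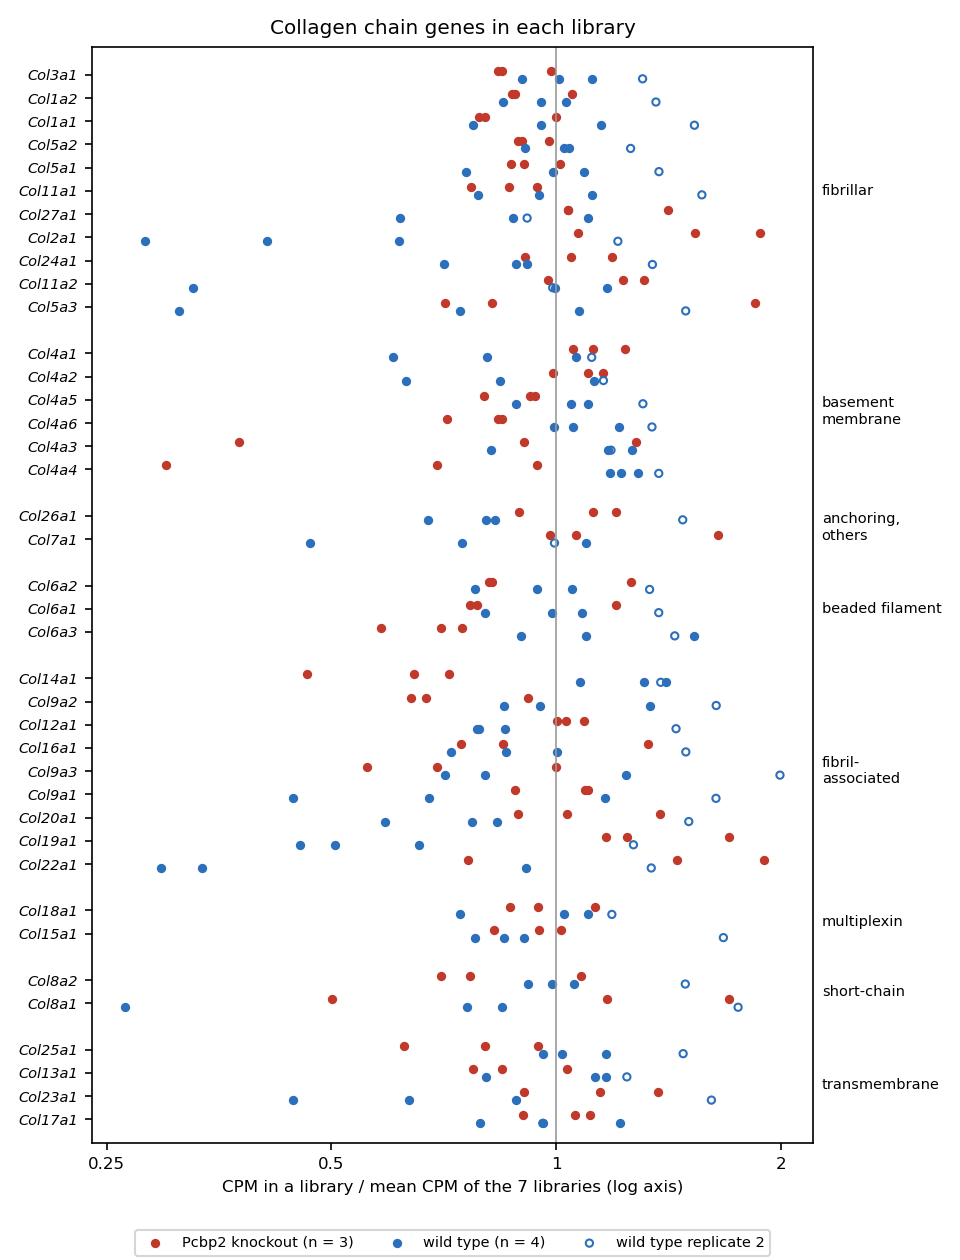
Level of each of the 39 collagen genes in each library, as CPM divided by the gene's mean over the 7 libraries (log axis), with genes ordered within each kind by level per kb; red points are the 3 knockout libraries, blue points the wild-type libraries and the open blue circle wild-type replicate 2. The open circle lies furthest right for 27 genes, and all red points lie left of all blue points for Col14a1, Col6a3, Col4a6, Col25a1 and Col4a4.

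All 3 knockout libraries lay below all 4 wild-type libraries for 5 collagen genes (12.8%, against 10.8% of all tested genes), and above them for none (against 9.83%). The 5 were Col14a1, Col6a3, Col4a6, Col25a1 and Col4a4. Col4a4 rested on few reads, 6, 19 and 20 in knockout libraries and 23, 34, 27 and 31 in wild-type libraries. The authors' deposited table gives an adjusted p under 0.05 and a negative log2 fold change to 5 collagens (12.8%, against 6.86% of its 15548 genes). These were Col14a1, Col6a3, Col4a6, Col25a1 and Col9a2. In the authors' deposited table none was called higher, against 4.06% of its genes.

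**Figure D2:**
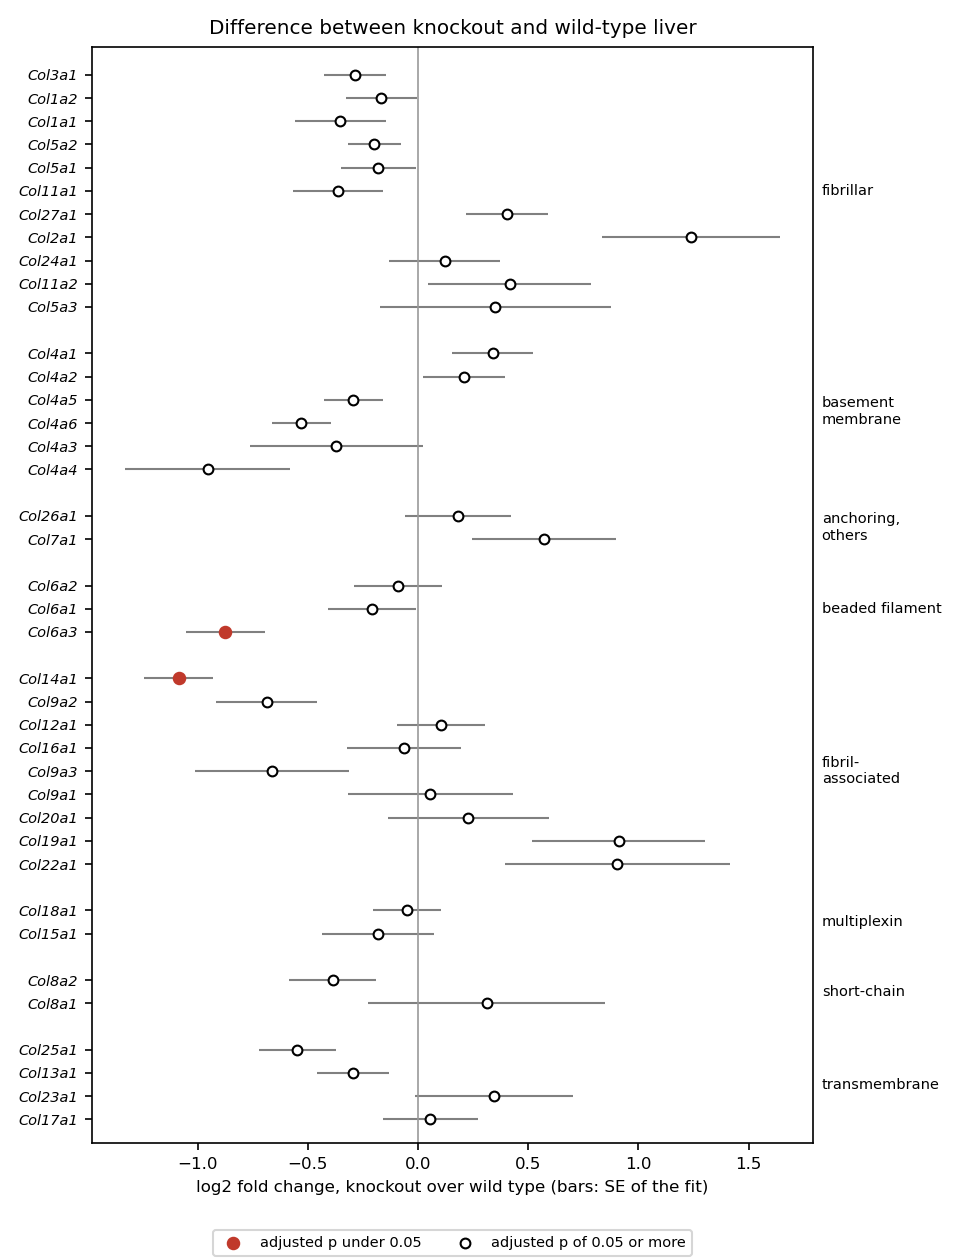
Log2 fold change of each collagen gene, knockout over wild type, with the standard error of the edgeR fit; filled points have an adjusted p under 0.05 and open points do not. The 2 filled points are Col6a3 at -0.87 and Col14a1 at -1.09, and the open points lie between -0.96 for Col4a4 and 1.24 for Col2a1.

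Among fibrillar genes, the mRNAs of the interstitial fibre were the most abundant collagens of the liver. Averaged over the 7 libraries, levels per length were 219 CPM per kb for Col3a1, 153 for Col1a2, 108 for Col1a1 and 50.5 for Col5a2. The sum over the 11 fibrillar genes was 2812, 3330 and 2805 CPM in knockout libraries, against 2796, 4483, 3264 and 3562 CPM in wild-type libraries. The groups overlapped, since wild-type replicate 1 lay below all 3 knockout libraries, and 0 of the 11 genes passed the test. The log2 ratio of the mean sums was -0.24, and -0.10 without wild-type replicate 2.

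Col3a1, whose single chain forms the type III homotrimer of compliant tissues, was at 1018, 1200 and 1031 CPM in knockout libraries and 1097, 1591, 1228 and 1363 CPM in wild-type libraries. Knockout replicates 3 and 5 lay below every wild-type library and replicate 4 lay within their range, and the fitted log2 fold change was -0.29 with a standard error of 0.14 (edgeR adjusted p = 0.273). The type I chain gene Col1a1 was at 504, 641 and 513 CPM in knockout libraries, against 496, 980, 611 and 734 CPM in wild-type libraries. Wild-type replicate 1 was the lowest of all 7 and replicate 2 the highest, and the log2 fold change was -0.35 ± 0.21 (edgeR adjusted p = 0.357). Its partner Col1a2 was at 721, 859 and 713 CPM in knockout libraries, against 694, 1113, 780 and 844 CPM in wild-type libraries. The order of libraries was much like that of Col1a1, and the log2 fold change was -0.17 ± 0.16 (edgeR adjusted p = 0.594). Without wild-type replicate 2 the log2 fold changes were -0.16 for Col1a1 and -0.026 for Col1a2. Neither type I chain nor Col3a1 was called under any of 14 alternative settings.

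The type V chains, which sit inside type I fibrils and limit their width, also overlapped. Col5a1 was at 176, 196 and 169 CPM in knockout libraries and 147, 266, 211 and 192 CPM in wild-type libraries, with a log2 fold change of -0.18 (edgeR adjusted p = 0.585). Col5a2 was at 301, 327 and 297 CPM in knockout libraries and 303, 421, 348 and 342 CPM in wild-type libraries, with a log2 fold change of -0.20 (edgeR adjusted p = 0.375). For both, the highest library was wild-type replicate 2, without which the log2 fold changes were -0.036 for Col5a1 and -0.11 for Col5a2.

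Col2a1, the main collagen of cartilage, had the largest positive log2 fold change of the 39. It was at 13.1, 16.1 and 9.15 CPM in knockout libraries, against 2.40, 10.3, 3.50 and 5.27 CPM in wild-type libraries. Only wild-type replicate 2 reached into the knockout range; the log2 fold change was 1.24 ± 0.40 and did not pass the test (edgeR adjusted p = 0.108). Without wild-type replicate 2 it was 1.75 (edgeR adjusted p = 0.00972). The 10 cartilage markers summed to 28.5 to 39.3 CPM in knockout libraries and 17.4 to 31.2 CPM in wild-type libraries. Of the 5 tested, 1 rose and none fell, against 1.59% and 3.43% of all tested genes. The 1 was Hapln1, a link protein of cartilage matrix (log2 fold change 0.98, edgeR adjusted p = 0.0269). Of the 10, 6 were under 1 CPM in every library, and Snorc was at 0 reads. Of the cartilage-associated type IX and type XI collagens, Col9a2, Col9a3 and Col11a1 had log2 fold changes of -0.69, -0.66 and -0.36. Those of Col9a1 and Col11a2 were 0.056 and 0.42, and none of these genes passed the test. The part of cartilage RNA in the Col2a1 value was not tested. Col2a1 lies on chromosome 15, as Pcbp2 does, at a distance of 4.47 Mb; Col22a1 and Col14a1 lie on it at 30.4 and 46.9 Mb from Pcbp2.

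The remaining fibrillar genes were Col11a1, Col11a2, Col24a1, Col27a1 and Col5a3. Col11a1 and Col27a1, at means of 40.4 and 35.9 CPM, had log2 fold changes of -0.36 and 0.40, and the other 3 had means of 0.442 to 2.39 CPM. None of the 5 passed the test. Exons of Col3a1 and Col5a1 overlap those of other annotated genes (Gm47302 for Col3a1, 2810430I11Rik and Gm13372 for Col5a1), so their counts could miss or share reads in those bases. The same holds for Col22a1 (Gm16308) and Col7a1 (Mir711), described below.

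Basement membrane chains are encoded in head-to-head gene pairs. The start sites of Col4a3 and Col4a4 lie 72 bases apart and those of Col4a5 and Col4a6 lie 1309 bases apart on the GENCODE M21 annotation. The first exons of Col4a1 and Col4a2 share 22 bases, shown on the Col4a2 strand.

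Col4a1 and Col4a2, chr8:11312805-11312826, plus strand: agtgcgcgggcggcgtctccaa

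The sequence just before the start of each X-linked gene, from RefSeq on GRCm38.p6, is shown because the balance between these neighbours is reported below. Capitals mark a CCAAT box in Col4a5 and, in Col4a6, CCGCCC, the reverse complement of GGGCGG.

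Col4a5, chrX:141475169-141475384, plus strand: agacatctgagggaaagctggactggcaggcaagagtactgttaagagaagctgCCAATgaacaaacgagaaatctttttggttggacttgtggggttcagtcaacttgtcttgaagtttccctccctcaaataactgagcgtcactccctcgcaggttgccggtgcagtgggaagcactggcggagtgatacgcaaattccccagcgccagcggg

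Col4a6, chrX:141474077-141474326, minus strand: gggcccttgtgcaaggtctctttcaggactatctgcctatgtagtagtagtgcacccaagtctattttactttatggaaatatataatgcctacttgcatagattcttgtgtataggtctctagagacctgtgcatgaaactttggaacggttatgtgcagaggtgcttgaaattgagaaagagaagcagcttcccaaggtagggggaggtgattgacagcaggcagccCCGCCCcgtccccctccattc

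On either strand of the 250 bases before the start, CCAAT occurred in 34.5% of 27025 promoters and in 11 of the 30 collagen genes with a promoter entry. GGGCGG occurred in 32.9% of promoters and in 18 of the 30, and TATAAA in 12.97% and in 4 of the 30. These matches are descriptions of the letters.

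The 6 type IV genes had log2 fold changes of both signs, 2 above 0 and 4 below it, and none passed the test. Their summed level was 258, 275 and 236 CPM in knockout libraries, against 179, 296, 265 and 229 CPM in wild-type libraries. The knockout sums lay within the wild-type range, and the log2 ratio of the mean sums was 0.083, or 0.19 without wild-type replicate 2.

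Col4a1 and Col4a2 encode the trimer found in nearly all basement membranes. Col4a1 was at 121, 133 and 113 CPM in knockout libraries, against 65.2, 120, 114 and 87.1 CPM in wild-type libraries, with a log2 fold change of 0.34 ± 0.18 (edgeR adjusted p = 0.316). Col4a2 was at 65.3, 68.4 and 58.7 CPM in knockout libraries, against 37.3, 68.6, 66.5 and 49.8 CPM in wild-type libraries, with a log2 fold change of 0.21 ± 0.19 (edgeR adjusted p = 0.562). In both genes wild-type replicates 1 and 4 were lowest and the groups overlapped, and without wild-type replicate 2 the log2 fold change of Col4a2 was 0.31. Of 9 endothelial markers 3 rose (Pecam1, Cdh5 and Emcn) and none fell, against 1.59% and 3.43% of all tested genes. The sum of the 9 was 290 to 376 CPM in knockout libraries, against 215 to 283 CPM in wild-type libraries. Their part in the type IV values was not tested, and in whole liver a change in the number of cells of a type and a change in RNA per cell cannot be told apart.

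The X-linked genes Col4a5 and Col4a6 had negative log2 fold changes. Col4a6, which pairs with the alpha 5 chain in smooth muscle and some epithelial basement membranes, was at 18.3, 18.5 and 15.6 CPM in knockout libraries, against 23.1, 29.4, 21.7 and 26.6 CPM in wild-type libraries. The groups did not overlap, and with a log2 fold change of -0.53 ± 0.13 the gene lay just outside the threshold (edgeR adjusted p = 0.0511). It passed with RLE size factors (adjusted p = 0.0475), when low-count genes were kept (0.0348), with a filter at 1 CPM (0.0490) and in DESeq2 (0.00564). Col4a5 was at 53.5, 54.3 and 46.4 CPM in knockout libraries, against 51.2, 75.8, 60.8 and 64.0 CPM in wild-type libraries, with a log2 fold change of -0.29 ± 0.13 (edgeR adjusted p = 0.231). Here only wild-type replicate 1 reached the knockout range. Xist, the RNA of the inactive X chromosome, was at 2212 CPM in knockout replicate 3 and at 1137 and 1316 CPM in wild-type replicates 2 and 3, and at 0.816 to 1.05 CPM in the other 4 libraries, so both groups held libraries of both kinds. Col4a3 and Col4a4, chains of kidney and lung basement membranes, had the lowest levels per length of the 6, at means of 0.094 and 0.060 CPM per kb, with log2 fold changes of -0.37 and -0.96.

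Beaded filaments of type VI collagen surround cells in connective tissue and are built mainly from alpha 1, alpha 2 and alpha 3 chains. Of these 3 genes Col6a3 passed the test and the other two did not. Col6a3 (chr1:90765923-90843971, minus strand) was at 90.2, 96.2 and 75.1 CPM in knockout libraries, against 116, 186, 197 and 141 CPM in wild-type libraries. Every knockout library lay below every wild-type library, and the knockout mean was 87.2 ± 10.9 CPM (SD, n = 3), against 160 ± 38.1 CPM in wild type (n = 4). The log2 fold change was -0.87 ± 0.18, or 1.83-fold lower, with an edgeR adjusted p of 0.0243. The call held in 11 of 14 alternatives and was lost without knockout replicate 4 (adjusted p = 0.0509), knockout replicate 5 (0.125) or wild-type replicate 3 (0.0583), with log2 fold changes of -0.95, -0.78 and -0.76.

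Col6a1 was at 96.2, 151 and 98.4 CPM in knockout libraries, against 101, 172, 124 and 136 CPM in wild-type libraries, with a log2 fold change of -0.21 (edgeR adjusted p = 0.587). Col6a2 was at 117, 182 and 118 CPM in knockout libraries, against 112, 192, 136 and 152 CPM in wild-type libraries, with a log2 fold change of -0.090 (edgeR adjusted p = 0.832) that turned to 0.025 under total-count scaling. In both genes knockout replicate 4 stood with the high wild-type libraries, whereas Col6a3 was low in that library as well. Without wild-type replicate 2 the log2 fold changes were -0.071 for Col6a1 and 0.051 for Col6a2. The 250 bases before the start of Col6a3 held none of the 3 promoter motifs above and were 67.2% A or G.

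Col6a3, chr1:90843972-90844221, minus strand: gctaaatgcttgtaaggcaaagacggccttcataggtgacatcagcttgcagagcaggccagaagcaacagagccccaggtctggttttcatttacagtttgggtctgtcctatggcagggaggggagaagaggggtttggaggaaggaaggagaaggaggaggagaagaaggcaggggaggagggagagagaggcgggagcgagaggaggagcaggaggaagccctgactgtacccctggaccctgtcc

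Col6a6, the type VI gene left out of the 39 by name, was at 3.63, 3.77 and 2.34 CPM in knockout libraries, against 13.00, 25.4, 19.0 and 18.2 CPM in wild-type libraries. The groups were far apart and the log2 fold change was -2.54 ± 0.25 (edgeR adjusted p = 0.00133). With it the number of collagen genes called lower would be 3, where 3.43% of all tested genes were called lower.

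Fibril-associated collagens coat the surface of fibrils, and 1 of the 9, Col14a1, had the largest fall of the 39 collagens. Col14a1 (chr15:55307750-55520803, plus strand) was at 39.3, 43.8 and 28.3 CPM in knockout libraries, against 79.9, 84.2, 85.6 and 65.6 CPM in wild-type libraries. No library overlapped, and the means were 37.1 ± 7.96 CPM in knockout (SD, n = 3) and 78.8 ± 9.14 CPM in wild type (n = 4). The log2 fold change was -1.09 ± 0.16, or 2.12-fold lower, with an edgeR adjusted p of 0.00595. It was called in all 14 alternatives, with log2 fold changes between -1.22 and -0.85 and adjusted p up to 0.0312. Wild-type replicate 2, high for most collagens, was not the highest library for Col14a1 or Col6a3.

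Among stellate and mesenchymal markers, 1 of 13 rose (Acta2, smooth muscle actin, log2 fold change 0.59) and 2 fell, against 1.59% and 3.43% of all tested genes. Those 2 were Lum, a proteoglycan of collagen fibrils, at 150 to 170 CPM in knockout libraries and 226 to 289 CPM in wild-type libraries, and Lrat, the retinyl ester enzyme of stellate cells, at 0.726 to 1.46 CPM in knockout libraries and 2.21 to 7.52 CPM in wild-type libraries. The sum of the 13 was 1267 to 1402 CPM in knockout libraries and 1289 to 1567 CPM in wild-type libraries, and their median log2 fold change was -0.026. Their part in the Col14a1 and Col6a3 values was not tested.

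The cartilage-associated gene Col9a2 was at 14.002, 20.03 and 14.6 CPM in knockout libraries, against 20.8, 35.9, 18.6 and 29.2 CPM in wild-type libraries. Knockout replicate 4 overlapped wild-type replicate 3, and the log2 fold change was -0.69 ± 0.23 (edgeR adjusted p = 0.115). Col22a1, a collagen of tissue junctions, was at 0.847, 1.61 and 2.11 CPM in knockout libraries, against 0.372, 1.49, 0.328 and 1.01 CPM in wild-type libraries, with a log2 fold change of 0.90 ± 0.51 (edgeR adjusted p = 0.338) and of 1.37 without wild-type replicate 2. Col12a1, another fibril-associated gene, was at 69.9 to 76.0 CPM in knockout libraries and 54.7 to 101 CPM in wild-type libraries. Its log2 fold change was 0.10 (edgeR adjusted p = 0.805), and wild-type replicate 2 was the only wild-type library above the knockout range.

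Of the multiplexin, transmembrane and short-chain genes with Col7a1 and Col26a1, all overlapped between the groups apart from Col25a1. Col18a1, the multiplexin of basement membranes from which endostatin is cut, was at 141, 168 and 129 CPM in knockout libraries, against 111, 177, 164 and 153 CPM in wild-type libraries. Its log2 fold change was -0.050 (edgeR adjusted p = 0.886), 0.067 under total-count scaling and 0.024 without wild-type replicate 2. The transmembrane gene Col25a1 was at 47.8, 40.5 and 31.6 CPM in knockout libraries, against 51.4, 74.8, 59.0 and 48.5 CPM in wild-type libraries. The groups did not overlap, by less than 1 CPM, and the log2 fold change was -0.55 ± 0.18 (edgeR adjusted p = 0.104).

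The short-chain gene Col8a2 was at 16.8, 25.9 and 18.4 CPM in knockout libraries, against 21.9, 35.6, 23.6 and 25.3 CPM in wild-type libraries, with a log2 fold change of -0.39 (edgeR adjusted p = 0.286). Col7a1, which builds the anchoring fibrils of skin, was at 1.42, 2.38 and 1.54 CPM in knockout libraries, against 0.677, 1.44, 1.59 and 1.08 CPM in wild-type libraries, with a log2 fold change of 0.57 (edgeR adjusted p = 0.344). Col26a1 was at 28.7, 38.8 and 36.1 CPM in knockout libraries, against 21.7, 47.6, 25.9 and 26.7 CPM in wild-type libraries, with a log2 fold change of 0.18 (edgeR adjusted p = 0.710). In Col7a1 the highest library was knockout replicate 4, and in Col8a2 and Col26a1 it was wild-type replicate 2, without which their log2 fold changes were -0.22 and 0.47. The 18 collagens not described in every library had log2 fold changes from -0.96 (Col4a4) to 0.91 (Col19a1) and none passed the test, the smallest edgeR adjusted p being 0.171.

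Chains that assemble together were also compared as ratios of reads within a library, which do not depend on scaling between libraries. Of 8 pairs, 4 had ratios that did not overlap between the groups. The share over other pairs of genes was not computed. Among single tested genes, a different measure, the knockout libraries lay all above wild type for 9.83% and all below for 10.8%. The 4 pairs are not independent results. Col6a1 is in both type VI pairs, and Col6a3 and Col4a6 were separate between the groups as single genes. With 3 against 4 libraries the smallest p of a two-sided exact permutation test over the 35 splits is 0.0286, and no pair passed after adjustment over the 8. That lower limit left the adjusted test little room to pass any pair.

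The ratio of Col6a3 to Col6a1 was 0.937, 0.637 and 0.763 in knockout libraries, against 1.15, 1.08, 1.59 and 1.04 in wild-type libraries, a log2 difference of -0.64 (exact permutation p = 0.0286, adjusted 0.0762). That of Col6a1 to Col6a2 was 0.821, 0.832 and 0.832 in knockout libraries, against 0.898, 0.895, 0.910 and 0.897 in wild-type libraries, a log2 difference of -0.12 (exact permutation p = 0.0286, adjusted 0.0762). Each group was tight for the second ratio, and its difference was small against that of Col6a3.

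The ratio of Col4a1 to Col4a2 was 1.85, 1.94 and 1.93 in knockout libraries, against 1.75, 1.75, 1.72 and 1.75 in wild-type libraries, a log2 difference of 0.13 (exact permutation p = 0.0286, adjusted 0.0762). That of Col4a5 to Col4a6 was 2.93, 2.94 and 2.97 in knockout libraries, against 2.22, 2.58, 2.80 and 2.41 in wild-type libraries, a log2 difference of 0.24 (exact permutation p = 0.0571, adjusted 0.114). In both pairs every knockout ratio exceeded every wild-type ratio. Exons of Col4a1 and Col4a2 overlap on opposite strands by 22 bases, in transcripts of 6615 and 6450 bases. Exons of Col4a2 also overlap those of Gm15419 on the opposite strand, by a length not given here. The strand setting used for counting is not stated, so reads in those bases may have been left unassigned.

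**Figure D3:**
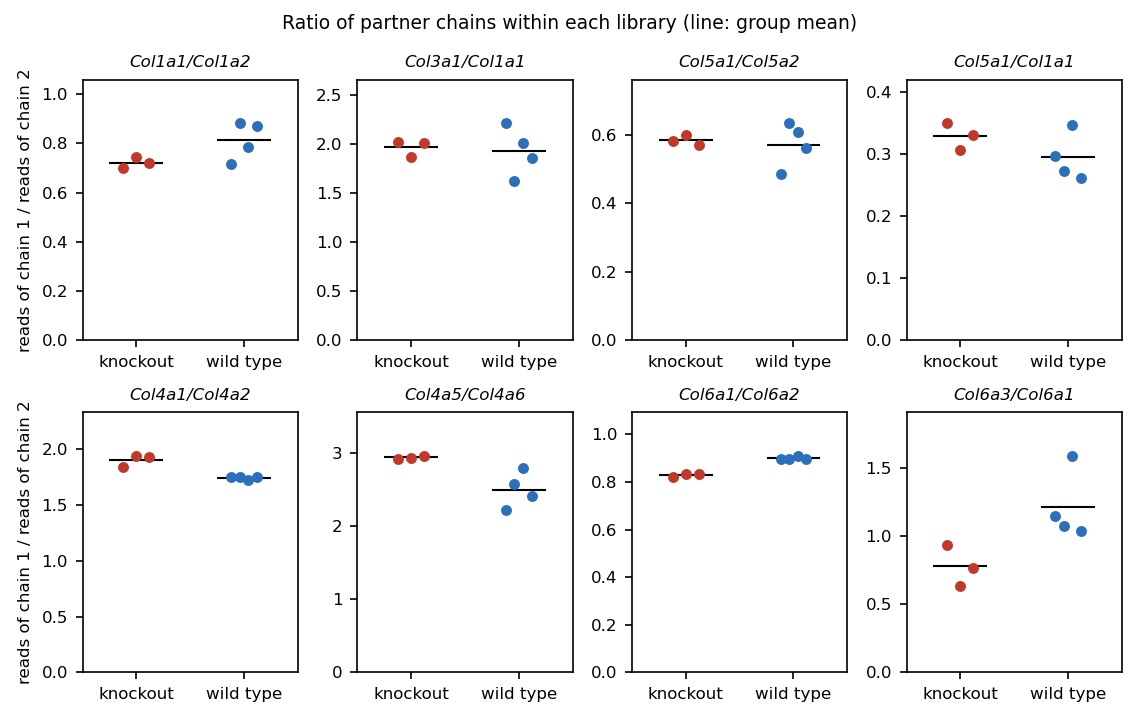
Ratio of reads of the first-named to the second-named chain in each library, for 8 pairs, with knockout in red, wild type in blue and a line at each group's mean; every axis starts at 0. The groups separate for Col4a1/Col4a2 and Col4a5/Col4a6, where knockout is higher, and for Col6a1/Col6a2 and Col6a3/Col6a1, where knockout is lower.

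The other 4 pairs overlapped. The ratio of Col1a1 to Col1a2 was 0.698, 0.746 and 0.720 in knockout libraries, against 0.715, 0.881, 0.783 and 0.870 in wild-type libraries, a log2 difference of -0.17 (exact permutation p = 0.143, adjusted 0.229). The log2 differences were 0.17 for Col5a1 to Col1a1, 0.040 for Col3a1 to Col1a1 and 0.039 for Col5a1 to Col5a2. Wild-type replicates 2, 3 and 4 held more Col1a1 relative to Col1a2 than any knockout library.

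The genes that modify, trim, cross-link, break down and bind collagen were compared in the same fit. Of 73 such genes 70 were tested, 1 rose and 1 fell, against 1.59% and 3.43% of all tested genes, and their median log2 fold change was -0.031. Plod2, a lysyl hydroxylase that prepares the ends of collagen chains for cross-linking, was at 98.5, 142 and 108 CPM in knockout libraries, against 76.7, 82.2, 75.2 and 74.3 CPM in wild-type libraries. All 3 knockout libraries lay above wild type, with a log2 fold change of 0.59 ± 0.12 (edgeR adjusted p = 0.0253); the call was lost without knockout replicate 4 or 5 or wild-type replicate 1, 3 or 4. Gp6, the collagen receptor of platelets and megakaryocytes, was at 2.21, 1.63 and 1.91 CPM in knockout libraries, against 3.32, 3.64, 4.13 and 4.48 CPM in wild-type libraries. Its groups were separate, with a log2 fold change of -1.03 ± 0.21 (edgeR adjusted p = 0.0231), and the call was lost without knockout replicate 4 or 5 or wild-type replicate 3 or 4.

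By list, 21 modification and folding genes were tested, with 1 higher (Plod2), 0 lower and a median log2 fold change of -0.045. P4ha1, a subunit of the prolyl hydroxylase that stabilizes the helix, was at 108, 181 and 126 CPM in knockout libraries and 85.0, 97.8, 104 and 104 CPM in wild-type libraries, with a log2 fold change of 0.50 (edgeR adjusted p = 0.102). Serpinh1, the collagen chaperone, was at 596 to 746 CPM in knockout libraries and 622 to 855 CPM in wild-type libraries. Neither passed the test, although the P4ha1 groups did not overlap.

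None of 7 propeptide-removal genes passed, with a median of -0.24. None of 6 cross-linking genes passed, with a median of -0.033, and Lox, the main lysyl oxidase, had a log2 fold change of 0.31 (edgeR adjusted p = 0.172). None of 11 genes for breakdown and its inhibitors passed, with a median of -0.14, and the gelatinase gene Mmp2 had a log2 fold change of -0.37 (edgeR adjusted p = 0.157). Of 10 receptor genes 1 fell (Gp6) and none rose, with a median of 0.065, and the integrin gene Itga10 had a log2 fold change of 0.90 (edgeR adjusted p = 0.0585). None of 15 basement membrane partners, the laminins, nidogens and proteoglycans, passed, with a median of 0.090.

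Markers of other cells in the liver or beside it are set out with the collagen sums. Of all tested genes, 1.59% were called higher and 3.43% lower. All 5 erythroid markers fell, with sums of 1006 to 1647 CPM in knockout libraries, against 2559 to 4917 CPM in wild-type libraries, with a median log2 fold change of -1.44. Of 7 heart muscle markers 3 rose (Myh6, Nppa and Tnni3), and all 7 had log2 fold changes above 0, with a median of 1.85. The sum of the 7 was 247, 59.6 and 93.6 CPM in knockout libraries, against 55.3, 77.1, 57.4 and 73.8 CPM in wild-type libraries. Of 7 mesothelial markers 1 fell (Gpm6a), with sums of 276 to 369 CPM in knockout libraries and 325 to 444 CPM in wild-type libraries. The log2 fold changes of 6 of these 7 were below 0, and the median was -0.41. None passed of 7 skeletal muscle markers (56.8 to 216 CPM in knockout libraries, 48.0 to 122 CPM in wild-type libraries), 4 neural crest markers (6.68 to 10.1 CPM in knockout libraries, 4.54 to 13.96 CPM in wild-type libraries), 5 tested adrenal markers or 5 hepatoblast markers.

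Adrenal markers summed to 2.90 to 6.55 CPM in knockout libraries and 2.03 to 29.6 CPM in wild-type libraries, the highest value being wild-type replicate 2. Hepatoblast markers summed to 6488 to 8450 CPM in knockout libraries and 4826 to 11001 CPM in wild-type libraries, with wild-type replicate 2 the lowest. Over the 39 collagen genes the sums were 3803, 4539 and 3735 CPM in knockout libraries, against 3729, 6005, 4484 and 4702 CPM in wild-type libraries, with wild-type replicate 2 the highest. The log2 ratio of these mean sums was -0.23, and -0.097 without that library; over the 22 genes of other types it was -0.29, and -0.15 without it. The part of these markers in the collagen values was not tested.

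**Figure D4:**
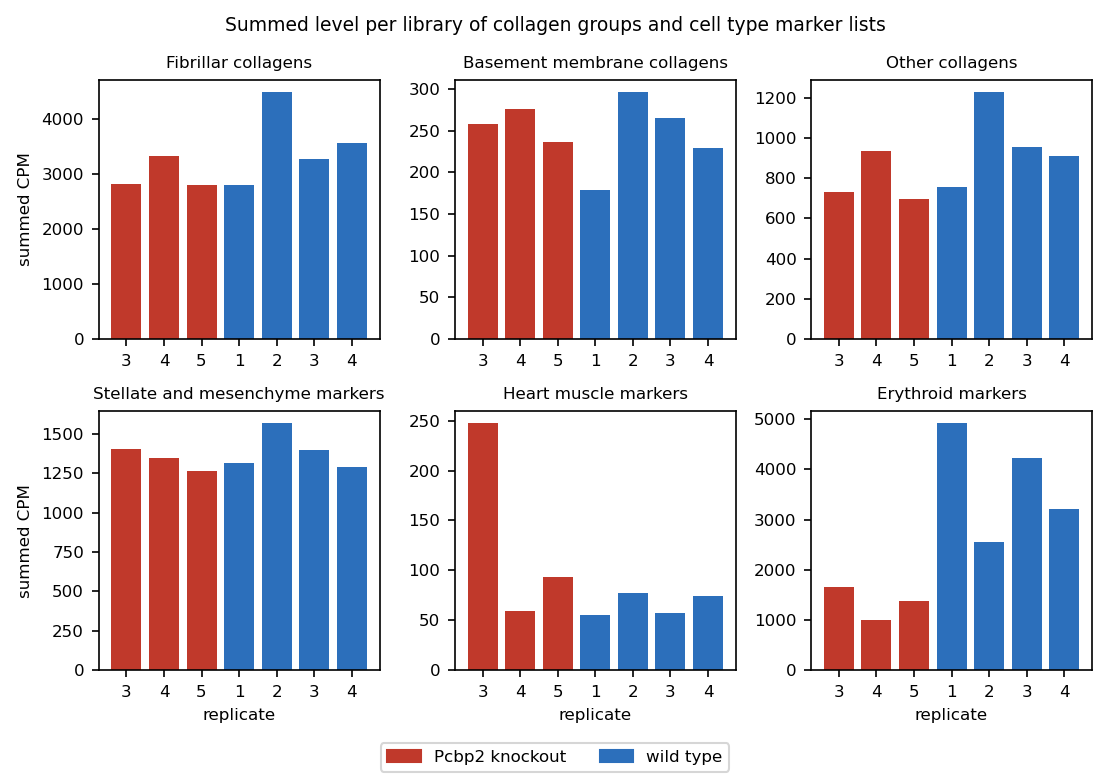
Summed CPM in each library of the 3 kinds of collagen gene (top row) and of 3 marker lists (bottom row), with the knockout libraries in red on the left and the wild-type libraries in blue on the right of each panel; bars start at 0. Fibrillar collagens reach 4483 CPM in wild-type replicate 2, against 2796 to 3562 CPM in the other 6 libraries, and erythroid markers are at 1006 to 1647 CPM in knockout and 2559 to 4917 CPM in wild type.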

How the data were processed

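Whole fetal liver was profiled in 3 knockout and 4 wild-type libraries. Per the labels' protocols, Trizol RNA was made into TruSeq stranded mRNA libraries. The submitters' processing notes name cutadapt 1.4.2, TopHat2, HTSeq, DESeq2, DESeq and mm10. Their settings, strand mode and annotation release were not given in the sources used here. Each deposited file has raw counts of reads by gene (31898339 to 44544889 per library), with 5 lines on unassigned reads that were left out. The authors' deposited table gives a mean normalized signal, a log2 fold change (knockout over wild type), a Wald score and p-values, and was used for gene names and as a named source.

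Counts were fitted with edgeR 4.0.16 in R 4.3.3 (filterByExpr, which removed 22698 genes, TMM, group as the only term, quasi-likelihood test, Benjamini-Hochberg over all genes, threshold 0.05); the script was tested on simulated data. Standard errors came from the F statistic. Levels per kb used the longest principal transcript of GENCODE M21, on mm10. Ratios added 0.5 reads to each chain and were tested over 35 splits. Alternatives were RLE and total-count scaling, no filter, a filter of 1 CPM in 3 libraries, limma-voom 3.58.1, DESeq2 1.42.0, a replicate block and each library left out. The block fit compares the groups only through numbers 3 and 4. Col6a6 as a member was added after seeing the data.

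The members, lists and alternatives were chosen with earlier results of these data known. Values in every library are given for called collagens, the 6 highest per kb, the highest of each kind, both chains of each pair, and the 3 largest and 3 smallest log2 fold changes where the mean was 1 CPM or more; Col12a1, P4ha1 and the genes of other lists were named after their values were seen.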

Additional observations from a re-analysis of the deposited data

Results flagged for a closer look

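The summed level of the 9 fibril-associated collagens was 275 CPM in wild-type replicate 2, against 185, 185 and 186 CPM in wild-type replicates 1, 3 and 4, a gap to the nearest library of 0.988 of the group's range. The summed level of the 2 short-chain genes was 43.7 CPM in the same library, against 25.8, 27.1 and 26.5 CPM in wild-type replicates 1, 3 and 4, a gap of 0.929 of the range. Both stood out because 1 sample lay far from the others of its group, past Dixon's critical value for 4 samples, which chance exceeds in about 1 in 20 groups. That rate is for a single group, and sums of other collagen kinds and of marker lists were also computed. The adrenal marker sum was likewise highest in wild-type replicate 2, at 29.6 CPM, against 6.67, 2.03 and 4.58 CPM in wild-type replicates 1, 3 and 4. The flagged sums share a library, and their cause was not tested.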

How the results depend on the processing

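The count of collagens called lower, 2, became 5 in DESeq2 (Col14a1, Col25a1, Col4a6, Col6a3 and Col9a2) and 1 to 2 when each library was left out in turn. The count called higher, 0, became 1 without a filter on low counts (Col2a1) and 0 to 3 with each library left out, the 3 (Col12a1, Col19a1 and Col2a1) without wild-type replicate 2. Pathway genes called higher, 1, became 2 under total-count scaling, 3 in DESeq2 and 0 to 3 with each library left out. Those called lower, 1, became 0 to 2 with each library left out. Calls over all genes moved as well. In DESeq2 they were 3.67% higher and 6.18% lower, and without a filter 333 higher and 737 lower of 23981 genes. With each library left out, 24 to 418 genes were called higher and 116 to 753 lower, of 15933 to 16513 tested. The log2 fold change of Col18a1 turned to 0.067 under total-count scaling and ranged from -0.17 to 0.033 with each library left out, above 0 without knockout replicate 5 or wild-type replicate 2. That of Col6a2 turned to 0.025 under total-count scaling and ranged from -0.33 to 0.051, above 0 without knockout replicate 3 or 5 or wild-type replicate 2. The log2 ratio difference of Col5a1 to Col5a2 ranged from -0.038 (without wild-type replicate 1) to 0.091, and that of Col3a1 to Col1a1 from -0.039 (without wild-type replicate 2) to 0.11, with each library left out. The cause was not tested. Across all genes, total-count scaling moved the median log2 fold change to 0.14 and the calls to 651 higher and 393 lower, against 0.014, 258 and 556, and left 0 collagens higher and 2 lower; the collagen median became 0.025.

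Numbers 3 and 4 occur in both groups, but the labels do not say that they pair libraries. Deviations correlated at 0.319 for number 3 and 0.258 for number 4, over only 2 pairs. Across numbers they correlated at -0.272 (knockout replicate 3, wild-type replicate 4) and -0.113 (knockout replicate 4, wild-type replicate 3). Xist was high in both libraries numbered 3 (2212 and 1316 CPM) and low in both numbered 4 (0.816 and 0.966 CPM). The number and the Xist level therefore cannot be told apart in these pairs. With the number as a replicate block, 852 genes were called higher and 1204 lower, or 5.25% and 7.42% of those tested. Of the 39 collagens 5 (12.8%) were called higher (Col12a1, Col23a1, Col2a1, Col4a1 and Col8a1) and 3 (7.69%) lower (Col14a1, Col6a3 and Col9a2). Under the block 6 pathway genes were called higher and 2 lower, and Col6a2 had a log2 fold change of 0.025.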
